A study of Homo sapiens with 6 samples.

Results

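The GIMAP genes (GTPases of immunity-associated proteins) form a family of small guanine nucleotide-binding proteins, and the 7 human genes GIMAP1, GIMAP2, GIMAP4, GIMAP5, GIMAP6, GIMAP7 and GIMAP8 lie next to each other on chromosome 7. They were taken by name from 58096 genes counted in total RNA of the ALL-SIL line, which comes from a human T-cell leukaemia (T-ALL) and carries both a NUP214-ABL1 fusion and a rearranged TLX1 gene. JQ1, which blocks the bromodomains by which BET proteins hold on to acetylated histones, had been given at 1 µM for 24 h in 3 libraries, and 3 libraries titled DMSO, the solvent, were the controls. Every library came from the same line in the same serum-containing medium. The treatment text of the controls repeats the JQ1 dose, so the grouping follows the titles, and what the controls were given is not described separately. Whether replicates were separate cultures is not stated. The spread that p-values are measured against is thus that of these libraries and may be technical.

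Several GIMAP proteins sit on membranes of the endoplasmic reticulum, Golgi, lysosome or lipid droplets. GIMAP proteins are found mainly in lymphocytes, with some members also in endothelial cells. They are known for their part in lymphocyte survival: loss of GIMAP5 or GIMAP1 in rodents depletes T cells, and GIMAP6 binds an autophagy protein of the ATG8 family. GIMAP RNA is low in early thymocytes and rises as T cells mature, and the locus is among those bound by T-lineage and T-ALL transcription factors. The comparison shows how levels of GIMAP RNA in a leukaemic T-cell line differ with BET inhibition.

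The cluster covers 299 kb of chromosome 7 on GRCh38, from 150450630 to 150750033 in GENCODE release 29. In order along the chromosome, GIMAP8 (ENSG00000171115.3) lies at 150450630 to 150479392, GIMAP7 (ENSG00000179144.4) at 150514830 to 150521073 and GIMAP4 (ENSG00000133574.9) at 150567277 to 150573955. GIMAP6 (ENSG00000133561.15) follows at 150625375 to 150632648 and is the only member on the minus strand. GIMAP2 (ENSG00000106560.10) lies at 150685697 to 150693641, GIMAP1 (ENSG00000213203.2) at 150716557 to 150724284 and GIMAP5 (ENSG00000196329.11) at 150722253 to 150750033. GIMAP1 and GIMAP5 overlap each other and the readthrough gene GIMAP1-GIMAP5 on the plus strand. Of the exonic bases 35.4% of GIMAP5 and 11.3% of GIMAP1 are shared with another gene of the same strand, and reads on such bases count as ambiguous in this kind of gene count and are left out. All exonic bases of GIMAP1-GIMAP5 are shared, and it had 0 counts in all 6 libraries. The levels of GIMAP1 and GIMAP5 are therefore lower bounds of their RNA, and reads of the readthrough cannot be told apart from theirs. The coding sequences of the 7 members share only short identical stretches: over 21 pairs the longest was 10 to 23 bases. The untranslated parts of their exons were not compared. GIMAP8 has the longest coding sequence, 665 codons against 300 to 362 in the others.

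The first listed RefSeq start site of each of the 7 members gave 7 upstream windows of 250 bases (RefSeq, GRCh38.p14). Except for GIMAP8, these starts differ from those of the GENCODE genes counted. The windows of GIMAP5 and GIMAP6 lie wholly inside the GENCODE genes. Those of GIMAP7, GIMAP4, GIMAP2 and GIMAP1 run past the GENCODE starts. Upstream here thus means upstream of the RefSeq start only. The 7 windows are poor in CpG, with 2 to 6 CpG dinucleotides and 39.6% to 49.2% GC. The median over 34943 RefSeq promoters was 11 CpG and 58% GC. The 2 windows with the longest run of identical bases, GIMAP7 (chr7:150514622-150514871, plus strand) and GIMAP1 (chr7:150716363-150716612, plus strand), are shown because this shared run, in capitals, lies at a like place in both. It is 14 bases long and starts 52 bases before the RefSeq start site of GIMAP7 and 60 before that of GIMAP1. In both genes it spans the GENCODE start. On either strand the run was found in 3 of the 34943 promoters, these 2 included.
GIMAP7: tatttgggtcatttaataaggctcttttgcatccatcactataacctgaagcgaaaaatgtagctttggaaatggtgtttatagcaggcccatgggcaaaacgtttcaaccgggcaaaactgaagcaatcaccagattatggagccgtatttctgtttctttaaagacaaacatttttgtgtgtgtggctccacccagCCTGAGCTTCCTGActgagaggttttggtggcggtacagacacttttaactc
GIMAP1: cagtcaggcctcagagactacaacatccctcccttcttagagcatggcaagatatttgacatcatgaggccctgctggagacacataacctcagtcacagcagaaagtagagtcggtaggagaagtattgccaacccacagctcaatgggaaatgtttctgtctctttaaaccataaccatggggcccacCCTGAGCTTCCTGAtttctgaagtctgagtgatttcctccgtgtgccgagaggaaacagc

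Motifs of T-lineage factors were searched in the same windows on both strands. GGAAGT, the core bound by ETS factors, was found in 4 of the 7 windows (GIMAP8, GIMAP4, GIMAP6 and GIMAP5), where 19.5% of all promoters hold it. The windows of GIMAP6 (chr7:150632386-150632635, minus strand) and GIMAP5 (chr7:150737168-150737417, plus strand) are shown with these matches in capitals. In both a match begins 64 bases before the RefSeq start site. In GIMAP6 it is read as the reverse complement ACTTCC.
GIMAP6: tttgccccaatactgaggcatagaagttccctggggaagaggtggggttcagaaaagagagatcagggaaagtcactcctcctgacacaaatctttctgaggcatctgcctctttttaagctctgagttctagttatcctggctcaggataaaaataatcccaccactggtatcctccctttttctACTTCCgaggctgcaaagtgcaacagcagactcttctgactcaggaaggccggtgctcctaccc
GIMAP5: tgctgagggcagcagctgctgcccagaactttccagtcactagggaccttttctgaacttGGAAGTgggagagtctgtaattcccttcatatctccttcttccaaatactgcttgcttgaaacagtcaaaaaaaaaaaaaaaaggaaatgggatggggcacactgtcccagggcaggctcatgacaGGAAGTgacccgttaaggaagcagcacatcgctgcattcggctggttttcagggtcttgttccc

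The RUNX motif TGTGGT (in 11% of all promoters) and the GATA motif AGATAA (9.19%) had no match in the 7 windows. The E-box CACGTG, the form bound by MYC, was in the windows of GIMAP4 and GIMAP2 (6.32% of all promoters), and CAGCTG, an E-box of E proteins, in that of GIMAP5 (14%). TATAAA was found in the GIMAP7 window only, on the opposite strand (10.8%). No other motif was searched.

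GIMAP RNA fell under JQ1. GIMAP6, GIMAP7, GIMAP1, GIMAP5 and GIMAP2, which had at least 10 counts in every library, all fell, by 2.16-fold to 3.28-fold, and every JQ1 library lay below every DMSO library for each. These 5 were called lower, where 20.6% of the 13975 tested genes were called lower, 15.9% higher and 36.6% in either direction (edgeR, adjusted p under 0.05). With the replicate number as a block these 5 were also lower, against 29.6% of all genes lower and 27.3% higher. The 5 were each lower by more than 2-fold, as were 7.61% of all genes. GIMAP8 is left out of these counts, since it passed the filter on low counts only through the controls, where it is higher, and GIMAP4 was too low to be tested. JQ1 lay wholly below DMSO for 26% of all tested genes. A log2 change is that of JQ1 relative to DMSO with its standard error (SE). Levels are CPM, read counts scaled to a common normalised library size, and means are given ± SD (n = 3). In bulk RNA, fewer cells with a transcript and less of it per cell cannot be told apart.

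GIMAP6, the member linked to autophagy, gave the most counts. In order of replicate number, its level was 126, 156 and 142 CPM in the controls and 36.9, 53.5 and 38.7 CPM with JQ1; the same order is kept for the genes that follow. The groups were far apart: the lowest DMSO library was 2.35 times the highest JQ1 library. Its mean was 141 ± 15.2 CPM with DMSO and 43.0 ± 9.13 CPM with JQ1, and the log2 change was -1.71 ± 0.15 (edgeR adjusted p = 3.8e-05). In size this fall ranked 449th from the lowest of 13975 log2 changes.

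GIMAP7 is an active GTPase that stimulates the GTPase activity of GIMAP2. It stood at 30.4, 43.9 and 40.5 CPM in the controls and at 10.5, 13.8 and 13.0 CPM with JQ1. No JQ1 library came near the controls, the lowest of which was 2.20 times the highest JQ1 library. The log2 change was -1.63 ± 0.16 (edgeR adjusted p = 5.6e-05), a 3.09-fold fall. DMSO replicate 1 was the lowest control.

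GIMAP2, a membrane-anchored member found on lipid droplets, had the smallest fall among the members tested. The controls had 48.7, 80.3 and 52.2 CPM and the JQ1 libraries 23.4, 34.2 and 26.5 CPM. The groups did not overlap, but DMSO replicate 2 stood well above the other controls, and the lowest DMSO library was 1.42 times the highest JQ1 library. The log2 change was -1.11 ± 0.21 (edgeR adjusted p = 0.0045), and -0.84 without DMSO replicate 2 (edgeR adjusted p = 0.0029). Tested for a change beyond 1.5-fold, it was not called (edgeR adjusted p = 0.062).

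GIMAP1, needed for mature T and B cells in mice, and GIMAP5, a lysosomal member whose loss causes lymphopenia, had far fewer counts than GIMAP6. GIMAP1 had 10.05, 14.1 and 12.7 CPM in the controls and 3.52, 5.44 and 2.71 CPM with JQ1. Its fall was 3.13-fold (log2 change -1.65 ± 0.24, edgeR adjusted p = 0.00057). GIMAP5 had 10.2, 17.3 and 12.5 CPM in the controls and 3.03, 6.62 and 4.32 CPM with JQ1. Its fall was 2.88-fold (log2 change -1.53 ± 0.29, edgeR adjusted p = 0.003). For both genes the groups were apart, and JQ1 replicate 2 was the highest treated library.

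GIMAP8, the largest member, with several GTPase domains, was near the limit of detection. The controls held 9, 12 and 11 of its reads and the JQ1 libraries 2, 3 and 2. It was tested only because all 3 controls exceeded the filter's 0.426 CPM, which 0 JQ1 libraries did, so its call is not independent of that filter. The log2 change was -1.91 ± 0.47 (edgeR adjusted p = 0.0095), and DESeq2 did not call it (adjusted p = 0.063). GIMAP4, which speeds up cell death in T cells, had 1, 3 and 3 reads in the controls and 0, 1 and 1 with JQ1. Its pooled counts gave a ratio of JQ1 to DMSO of 0.335 with an exact 95% interval of 0.0339 to 1.76, so no change in GIMAP4 was detectable at this depth. That interval covers counting error only.

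**Figure D1:**
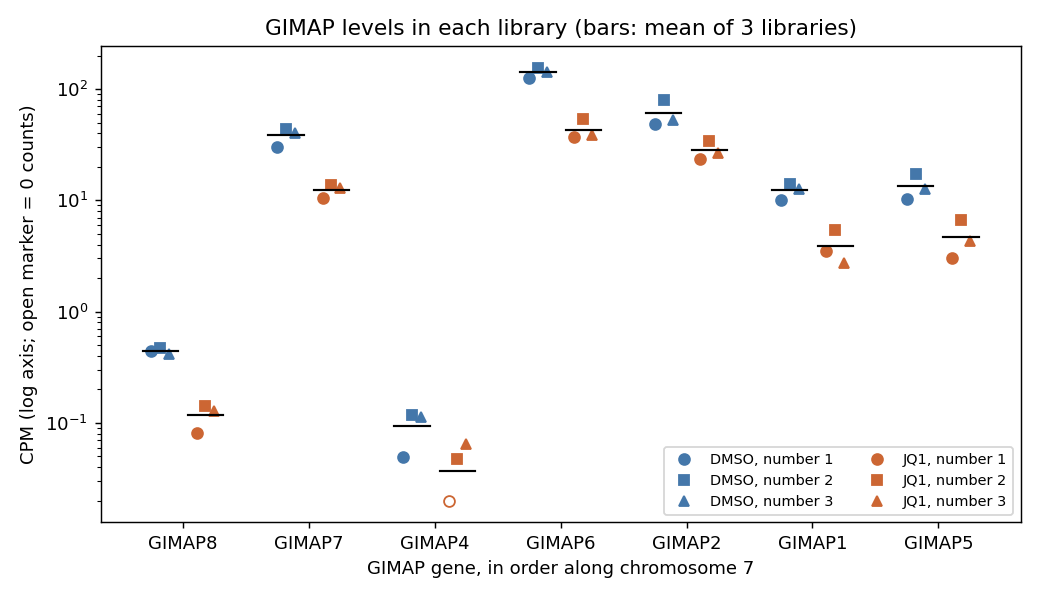
CPM of the 7 GIMAP genes on a log axis, by library (blue: DMSO; orange: JQ1; circle, square and triangle: replicates 1, 2 and 3), with black bars for the mean of 3 libraries and an open marker, placed at the foot of the axis, for a library with 0 counts. For GIMAP8, GIMAP7, GIMAP6, GIMAP2, GIMAP1 and GIMAP5 all JQ1 points sit below all DMSO points; GIMAP4 has 0 to 3 counts per library and its groups overlap.

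Per kilobase of exon that no other gene of the strand shares, 3 members stood together at the top in DMSO. GIMAP6 had 36.1 ± 3.88, GIMAP7 30.5 ± 5.59 and GIMAP2 28.8 ± 8.25 CPM per kb, and their ranges over libraries overlapped. GIMAP5 (3.43 ± 0.921 CPM per kb) and GIMAP1 (2.86 ± 0.482) came next, with ranges that overlapped each other but not those of the first 3. GIMAP8 (0.106 ± 0.00652) and GIMAP4 (0.0427 ± 0.0175) were lowest. Under JQ1 the order of the first 3 was GIMAP2 (13.4 ± 2.65), GIMAP6 (11.0 ± 2.33) and GIMAP7 (9.89 ± 1.36 CPM per kb). The range of GIMAP6 overlapped both others there, while the lowest GIMAP2 library (11.2) was just above the highest GIMAP7 library (11.0).

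The replicate number moved with GIMAP levels in both groups. For the 5 members with at least 10 counts in every library, replicate 2 was the highest library in both groups. Replicate 1 was the lowest, except that GIMAP1 was lowest in replicate 3 with JQ1. Libraries of the same number deviated together across all genes too (r of 0.33 to 0.43), so this order cannot be taken as a trait of the cluster. How many of all genes share it was not counted. Deviations from the group means correlated between members (Pearson r of 0.55 to 0.945 for the 10 pairs of the 5 members with at least 10 counts in every library, over 6 libraries that share depth and scaling). Libraries of the same number could be set against each other, since numbers paired the libraries across all genes. GIMAP6 had log2 ratios of -1.77, -1.54 and -1.87 in numbers 1, 2 and 3, and GIMAP7 had -1.53, -1.67 and -1.64. GIMAP2 had -1.06, -1.23 and -0.98. In all 3 pairs the fall of GIMAP2 was the smallest of the 5 members with at least 10 counts in every library. GIMAP1 varied most among well-counted members, at -1.51, -1.38 and -2.22, and GIMAP5 had -1.76, -1.38 and -1.54. Whether members differ in their change was not tested.

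**Figure D2:**
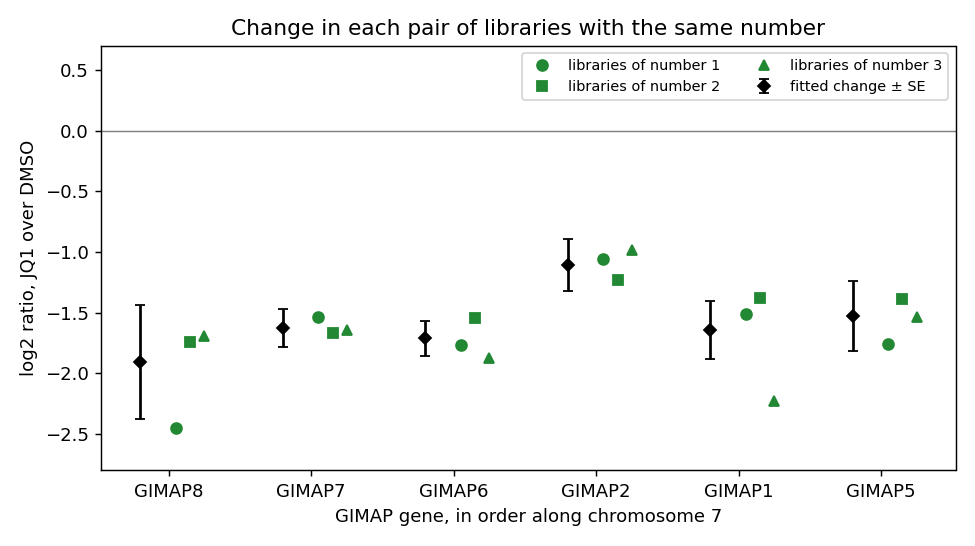
Log2 ratio of JQ1 over DMSO for the 6 tested GIMAP genes: the fitted change ± SE (black diamonds) and the ratio in each pair of libraries of the same number (green). Pair values of the 5 members with at least 10 counts in every library ran from -2.22 for GIMAP1 to -0.98 for GIMAP2, both in number 3. Those of GIMAP8, down to -2.46 in number 1, rest on 2 to 3 reads in each JQ1 library. GIMAP8 passed the filter on low counts only through the controls.

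Summed over the 7 members, the cluster had 225, 312 and 260.3 CPM in the controls and 77.4, 114 and 85.3 CPM with JQ1. The mean went from 266 ± 43.6 to 92.2 ± 19.1 CPM, 2.88-fold lower. The makeup of this sum shifted from GIMAP6 towards GIMAP2. GIMAP2 was 20.1% to 25.7% of the summed counts in DMSO and 30.1% to 31.0% in JQ1, and GIMAP6 was 49.9% to 55.7% in DMSO and 45.3% to 47.6% in JQ1, without overlap for either. Set against GIMAP6, GIMAP2 had 0.388, 0.515 and 0.368 times its CPM in the controls and 0.636, 0.639 and 0.685 times with JQ1. The shares of GIMAP7, GIMAP1, GIMAP5, GIMAP8 and GIMAP4 overlapped between groups. These shares were not tested.

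**Figure D3:**
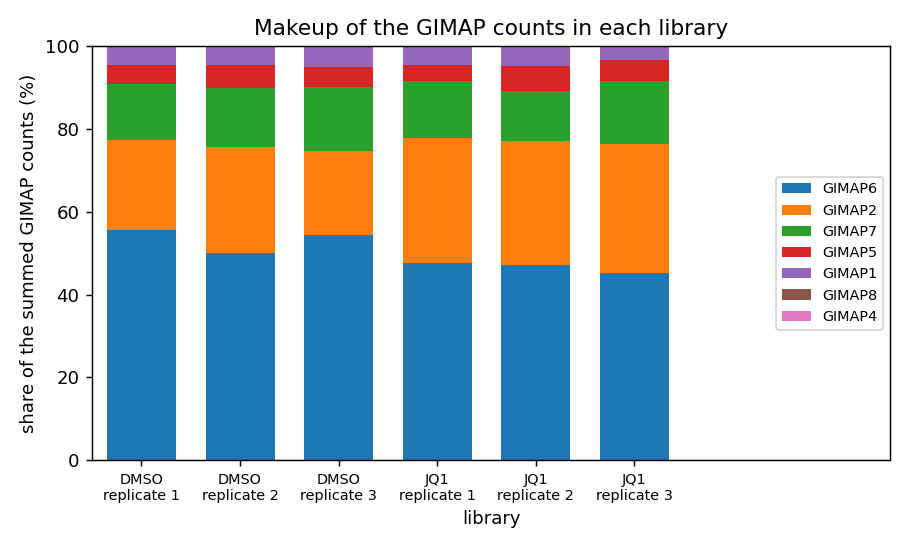
Share of each GIMAP gene in the summed GIMAP counts of each library, in percent. GIMAP6 (blue) and GIMAP2 (orange) make up most of each bar, and the GIMAP2 part is 30.1% to 31.0% in JQ1 against 20.1% to 25.7% in DMSO; GIMAP8 and GIMAP4 are too small to be seen.

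Reads on the opposite strand were too few to bear on these levels. They made up 0.0562% to 0.179% of the reads of both strands in GIMAP7, GIMAP6, GIMAP2, GIMAP1 and GIMAP5, and 1 read in all for GIMAP8. GIMAP3P, a processed pseudogene on the minus strand within the GIMAP5 span, had 0 counts on its own strand. The plus strand there, the strand of GIMAP5, had 7, 10 and 5 reads in the controls and 4, 0 and 2 with JQ1.

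Of the tested genes around the cluster, more fell than rose. Within 500 kb of either end 45 other genes are annotated, of which 16 were tested, with 7 lower and 1 higher and a median log2 change of -0.17 (over all tested genes 20.6% were lower, 15.9% higher and the median was 0.00). The 9 other annotations inside the cluster, mostly pseudogenes, had 7 counts in all. With the replicate number as a block, 8 neighbours were lower and 3 higher, and over all genes 4133 were lower and 3813 higher.

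On the GIMAP8 side, the nearest tested gene was ZNF775, a zinc finger gene 52.0 kb away, with 17.4 ± 1.14 CPM in the controls, 17.9 ± 1.94 CPM after JQ1 and a log2 change of 0.04 ± 0.12 (edgeR adjusted p = 0.84). Beyond it, REPIN1 (-0.66 ± 0.13), LRRC61 (-0.75 ± 0.12), ZBED10P (-0.80 ± 0.16) and ACTR3C (-1.38 ± 0.25) fell, all by less than GIMAP6. ZBED10P lies inside LRRC61 on the same strand, so their shared reads are left out. On the GIMAP5 side, TMEM176B, TMEM176A and AOC1 had 0 counts in all libraries. The nearest tested gene there, ABCB8, a mitochondrial transporter 278 kb away, rose (0.60 ± 0.09, edgeR adjusted p = 0.00076). TMUB1 (-0.70 ± 0.15), AGAP3 (-2.16 ± 0.24) and ABCF2 (-0.46 ± 0.09) fell, AGAP3 from 4.47 ± 0.696 to 0.987 ± 0.198 CPM. Not called were CDK5 (-0.37 ± 0.13, edgeR adjusted p = 0.051, and 0.0022 with the block), SLC4A2 (0.17 ± 0.09, 0.019 with the block), SMARCD3 (0.32 ± 0.15, 0.0073 with the block), ASIC3 (0.49 ± 0.27), FASTK (0.10 ± 0.09), CHPF2 (0.06 ± 0.11) and ENSG00000272661 (0.02 ± 0.23).

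**Figure D4:**
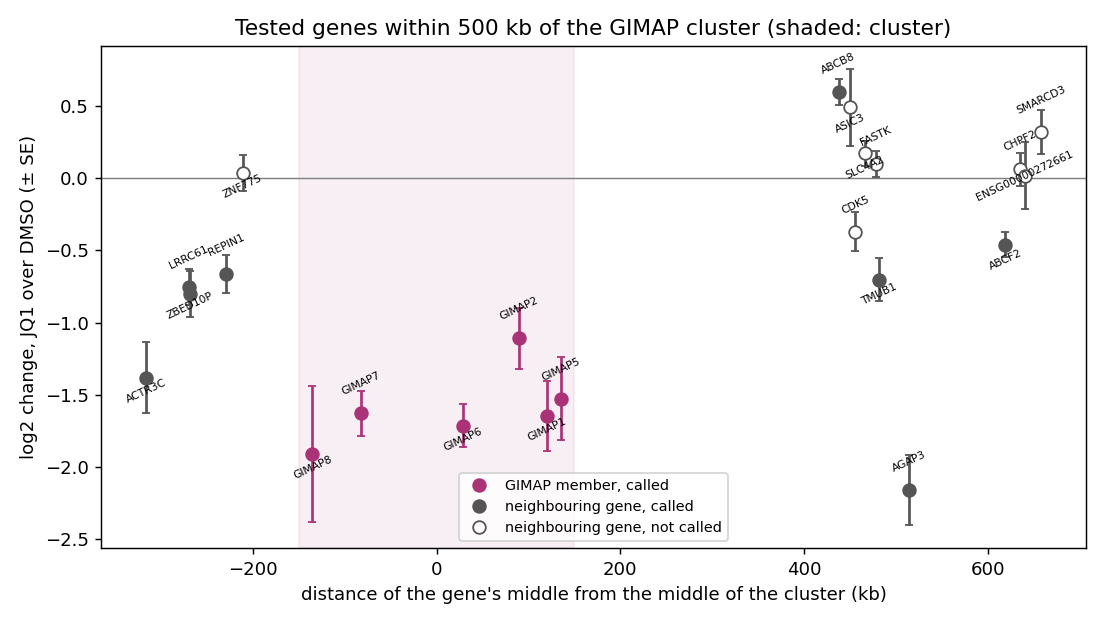
Log2 change under JQ1 ± SE of tested genes against the distance of their middle from the middle of the cluster, in kb (shaded: the cluster; filled: called at edgeR adjusted p under 0.05). The 6 GIMAP points lie between -1.91 and -1.11; of the 16 neighbours 2, ACTR3C (-1.38) and AGAP3 (-2.16), fell by more than GIMAP2.

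Genes of proteins described as partners of GIMAP proteins were called in both directions, as genes at large were. In the ATG8 family of autophagy proteins, to which the GIMAP6 partner GABARAPL2 belongs, 3 of 4 tested genes rose and 0 fell, where 15.9% of all tested genes rose. GABARAPL2 rose from 34.1 ± 4.10 to 46.6 ± 1.11 CPM (0.45 ± 0.10, edgeR adjusted p = 0.0066), while GIMAP6 fell in the same libraries. MAP1LC3B rose by 0.91 ± 0.12 and GABARAPL1 by 0.78 ± 0.24, the latter not called without JQ1 replicate 2 (edgeR adjusted p = 0.095) or DMSO replicate 3 (0.081), and GABARAP had 0.46 ± 0.27 (edgeR adjusted p = 0.22). Among genes of the BCL2 family and 2 others, some of them described as GIMAP partners, 3 of 9 fell and 2 rose, with a median log2 change of -0.07, where 20.6% of all tested genes fell and 15.9% rose. The survival genes BCL2 (-0.54 ± 0.13) and BCL2L1 (-0.60 ± 0.12) fell while MCL1 (0.55 ± 0.10) and the kinase gene GSK3B (0.45 ± 0.08) rose. The death gene BAD had -0.30 ± 0.10 (edgeR adjusted p = 0.041), a call lost without any 1 library (0.056 to 0.13). BAX (-0.07 ± 0.12), BAK1 (-0.11 ± 0.11), HSPA8 (0.16 ± 0.21) and BCL2L11 (0.24 ± 0.14, edgeR adjusted p = 0.0050 with the block) were not called.

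Of 13 tested transcription factor genes of T cells and T-ALL, some of them described at the GIMAP locus, 4 fell and 1 rose, with a median of -0.24, where 20.6% of all tested genes fell and 15.9% rose. LYL1, a helix-loop-helix factor of immature T-ALL, fell from 7.85 ± 0.962 to 1.22 ± 0.323 CPM, more than any GIMAP gene (-2.66 ± 0.23, edgeR adjusted p = 2.85e-05). The lymphoid zinc finger gene IKZF1 fell from 285 ± 40.8 to 145 ± 24.2 CPM (-0.98 ± 0.14), and the E protein genes TCF3 and TCF12 by 0.57 ± 0.09 and 0.39 ± 0.09. NOTCH1 was the 1 that rose (0.49 ± 0.16, edgeR adjusted p = 0.038). The other 8 were not called, GATA3 (-0.11 ± 0.25), MYB (-0.10 ± 0.13), RUNX1 (-0.31 ± 0.12) and ETS1 (-0.24 ± 0.10) among them. With the block RUNX1 and ETS1 were lower (edgeR adjusted p = 0.00053 and 0.0023). TAL1, LMO1 and LMO2 had 0 counts.

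Other GTPase families behaved unevenly. Among septins, the cytoskeletal GTPases related to GIMAP proteins in fold, 2 of 7 tested fell and 0 rose, with a median of -0.21, where 20.6% of all tested genes fell. SEPTIN8 fell by 2.38 ± 0.14 and SEPTIN1 by 0.74 ± 0.12. SEPTIN2 (0.13 ± 0.09), SEPTIN6 (-0.02 ± 0.11), SEPTIN7 (0.12 ± 0.09), SEPTIN9 (-0.21 ± 0.20, edgeR adjusted p = 0.012 with the block) and SEPTIN11 (-0.29 ± 0.11, 0.00015 with the block) were not called. Of 8 tested interferon-inducible GTPase genes and their relatives, 5 fell and 1 rose, with a median of -1.43, where 20.6% of all tested genes fell and 15.9% rose. GBP1 (-1.66 ± 0.16), GBP3 (-1.84 ± 0.17), GBP4 (-2.77 ± 0.38), MX1 (-1.92 ± 0.20) and MX2 (-1.20 ± 0.13) fell. IRGQ had 0.29 ± 0.09 (edgeR adjusted p = 0.0296), called higher here and in 9 of 17 alternatives, and GBP5 (-0.18 ± 0.36) and IRGM (0.17 ± 0.31) were not called.

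Genes of naive and mature T cells, the stages at which GIMAP RNA is high, fell in 5 of 9 tested cases and rose in 0, where 20.6% of all tested genes fell and 15.9% rose (29.6% and 27.3% with the block). The homing gene CCR7 (-2.36 ± 0.20) fell by more than any GIMAP gene. The cytokine receptor gene IL7R had 3.55, 3.38 and 1.36 CPM in the controls and 0.162, 0.986 and 0.129 CPM with JQ1. Like GIMAP8, it passed the filter on low counts through the controls, so its call, 1 of the 5, is not independent of that filter. Its log2 change was -2.64 ± 0.65 (edgeR adjusted p = 0.013), and -4.16 without JQ1 replicate 2. Tested for a change beyond 1.5-fold, IL7R was not called (edgeR adjusted p = 0.055). BCL2 is also in this list, and SATB1 had -0.26 ± 0.09 (edgeR adjusted p = 0.047, a call lost in 11 of 17 alternatives). TCF7 (-0.10 ± 0.28), LEF1 (0.27 ± 0.24), FOXO1 (0.08 ± 0.20) and KLF2 (-0.68 ± 0.53) were not called.

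The 5 protein-coding genes outside these lists whose log2 CPM over the 6 libraries was most like the summed GIMAP level were PRDM8, SIT1, RANGRF, PCDHB16 and ARHGEF6 (Pearson r of 0.997 to 0.998). Of 10587 genes compared 13.9% had r above 0.9, and the difference between the groups enters every such r. SIT1, a T-cell receptor signalling adaptor, had a fall close to that of the cluster (-1.54 ± 0.15), and ARHGEF6, a guanine nucleotide exchange factor, fell by 2.07 ± 0.28. PCDHB16 fell by 1.45 ± 0.23 and RANGRF by 0.63 ± 0.10, though RANGRF was not called with reads of both strands added (edgeR adjusted p = 0.062). PRDM8 fell by 2.34 ± 0.33 on its own strand, but had 0.19 with reads of both strands added (edgeR adjusted p = 0.4). With 8, 13 and 6 reads in the JQ1 libraries, PRDM8 passed the filter on low counts through the controls, so its call is not independent of that filter.

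The libraries held 15925885 to 25293884 gene counts, and markers fitted the labelled T-cell line. Of 13 T-lineage markers all but TRAC exceeded 1 CPM in some library, with CD3D at 246 to 424 CPM. Their sum was 1772 to 1982 CPM in DMSO and 1040 to 1323 in JQ1. Of 12 tested 9 fell and 0 rose, with a median log2 change of -0.73, where 20.6% of all tested genes fell and 15.9% rose. The 9 include CD2, which had few reads with JQ1 and passed the filter through the controls. CD28 (-2.62 ± 0.32), CD5 (-2.50 ± 0.35) and LCK (-1.86 ± 0.13) fell by more than GIMAP6 (-1.71). CD247 (-0.19 ± 0.12, edgeR adjusted p = 0.0095 with the block), TRBC1 and TRBC2 were not called. All 6 myeloid, 5 erythroid and 6 stromal or epithelial markers stayed under 1 CPM. Endothelial cells also express GIMAP genes: their markers VWF, CDH5 and KDR were at 0 and TEK under 1 CPM, while PECAM1, which leukocytes share, fell with the cluster (5 markers summed to 65.4 to 91.5 CPM in DMSO and 4.64 to 9.95 in JQ1). NK-cell markers had NCAM1 and KLRF1 at 0 and NKG7 at 41.6 to 223 CPM (sum 132 to 223 CPM in DMSO, 41.6 to 134 in JQ1). B-cell markers had MS4A1 at 0 and CD79A at 0.451 to 12.1 CPM (sum 11.5 to 24.5 CPM in DMSO, 1.61 to 6.34 in JQ1). CD79B fell from 8.80 ± 2.69 to 1.23 ± 0.411 CPM (-2.82 ± 0.29, edgeR adjusted p = 7.6e-05), more than any GIMAP gene. CD79A was not called (edgeR adjusted p = 0.17). The part of CD79A, CD79B, NKG7 and PECAM1 expression in the GIMAP changes was not tested.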

How the data were processed

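The files deposited by the authors hold raw counts of reads per gene for each library, not normalised, in 3 columns, 1 unstranded and 1 per strand, laid out as STAR gene counts are, which leaves out reads of several places or several genes. Libraries were stranded total RNA, per the labels' protocols, and GRCh38 is the build named, per the submitters' processing notes. For aligner version and annotation release: not given in the sources used here. The reverse-strand column was used, which held 20.9 to 22.6 times the counts of the other strand. Totals leave out the summary lines of each file: unmapped reads (1.48% to 1.99%), multimapping reads (14.1% to 15.7%), reads outside genes (18.8% to 26.1%) and ambiguous reads (3.38% to 3.88%). Of 58096 identifiers 57492 matched GENCODE release 29 without their version, and all 7 members matched with it. Replicates of each group differed by more than counting noise.

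Genes were kept with filterByExpr (minimum count 10, minimum total 15), which left 13975, scaled by TMM factors (0.965 to 1.06) and tested with the robust quasi-likelihood F test of edgeR 4.0.16 (R 4.3.3), with group as the only term. Benjamini-Hochberg adjustment ran over all tested genes, with calls at 0.05. The SE was taken as the absolute log2 change over the root of F. The procedure was tested on simulated data, where it recovered 73% of 2-fold and 45% of 1.5-fold changes. Far fewer genes were changed there than were called here (36.6%), and the adjustment depends on that share. The recovery rates need not hold for these data. Recovery was incomplete, so a gene not called is not shown to be unchanged. The interval on pooled counts is exact (Clopper-Pearson); reads carry no molecular identifiers.

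Across genes, libraries that share a replicate number deviated together from their group means (r of 0.33, 0.43 and 0.37 for numbers 1, 2 and 3), so numbers can be taken as pairs. The pairing is read from the data, as no label explains the numbers, and the test above has no block.

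Alternatives were DESeq2 1.42.0, limma-voom (limma 3.58.1), 3 other scalings, 2 other filters, unstranded counts, a fit with no mitochondrial or small RNA genes, the replicate block, a test for changes beyond 1.5-fold, and fits without each library in turn. Members and lists were chosen with earlier results of these data known. Named are the members, tested genes within 500 kb, list members (all of a list with up to 10 tested, else the 4 with the smallest p) and the 5 genes most like the summed level. Beyond this rule some transcription factor genes and cell type markers are named. Lists were counted, not tested as sets, and 1 list gene that the rule names is not reported here.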

Additional observations from a re-analysis of the deposited data

How the results depend on the processing

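All tested GIMAP members kept their direction in the 17 alternatives, or in the 12 of them that tested GIMAP8. GIMAP6, GIMAP7, GIMAP1 and GIMAP5 stayed called in all 17, and GIMAP2 in all but the test against a fold change of 1.5. GIMAP8 was not called by DESeq2 or against that fold change, and 5 alternatives left it under the filter. With GIMAP8 left out, 4 members were called lower against a fold change of 1.5 and 5 in every other setting. Over all genes, 899 were called lower against that fold change and 2436 to 4133 in the other settings. Over fits without 1 library the log2 ratio of the summed level ran from -1.71 to -1.40. GIMAP8 and GIMAP4 are limited by depth.

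The replicate block raised genes called higher from 2227 to 3813 over all genes and from 1 to 3 among neighbours, gave 4133 lower over all genes, and changed no call of a GIMAP member. Against a fold change of 1.5, 899 genes were lower and 246 higher, with 2 neighbours lower and 0 higher, and 2 partners and regulators lower and 1 higher in place of 7 and 6. Without 1 library, neighbours called higher numbered 1 to 2.

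Uncalled log2 changes near 0 changed sign. With library size only, ENSG00000272661 had -0.044 and ZNF775 -0.027. Over fits without 1 library the ranges were -0.068 to 0.061 for ENSG00000272661, -0.013 to 0.13 for ZNF775, -0.032 to 0.14 for CHPF2, -0.053 to 0.37 for IRGM, -0.48 to 0.18 for GBP5, -0.099 to 0.047 for SEPTIN6 and -0.34 to 0.0036 for SEPTIN9. They were -0.15 to 0.0088 for BAX, -0.015 to 0.32 for HSPA8, -0.023 to 0.23 for FOXO1, -0.34 to 0.15 for TCF7 and -0.0398 to 0.49 for LEF1. PRDM8, called lower, had 0.19 with unstranded counts. The cause was not tested.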
